A study of Mus musculus with 6 samples.

Results

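The genes described here are those of sterol synthesis and of fatty acid synthesis, with the regulators that control both pathways, in mouse neuroblastoma cells depleted of the long non-coding RNA Dali. Members were chosen by name, as 34 genes: 18 enzymes from acetyl-CoA to cholesterol, 10 enzymes of fatty acid synthesis and desaturation, 5 regulators and the sterol transfer gene Stard4. Of these, 33 were named by a probe set with a single gene symbol, out of 19938 genes so named on the array, and Acat2 was not analysed here. Where a gene had more than 1 probe set, the one with the highest mean of the 6 arrays was taken. All 6 samples were N2A cells, a line derived from a mouse neuroblastoma, grown in serum-containing medium and transiently transfected with 1.5 ug of a plasmid that expresses a short hairpin RNA (shRNA). The 3 control samples received a non-targeting vector and the 3 Dali knockdown samples a vector whose hairpin is directed against Dali. After 2.5 days RNA was extracted, and 200 ng per sample was hybridised to Affymetrix Mouse Gene ST arrays, whose probe sets were summarised by the authors as log2 signals with robust multi-array averaging (RMA). The knockdown rests on a single hairpin construct, and in a transient transfection the RNA of cells that did not take up the plasmid is measured together with that of cells that did. Groups and replicate numbers 1 to 3 were taken from the sample labels. These are bulk samples, so fewer cells that express a gene and less RNA per cell cannot be told apart.

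Cholesterol is built from acetyl-CoA through mevalonate, isoprenoid diphosphates, squalene and lanosterol, and long-chain fatty acids are built from the same acetyl-CoA by carboxylation, chain growth and desaturation. Both pathways are switched by the sterol regulatory element binding proteins (SREBPs), transcription factors that are held in the endoplasmic reticulum by the escort protein SCAP and its sterol-dependent anchors INSIG1 and INSIG2. When membrane sterol is low they travel to the Golgi, are cleaved, and enter the nucleus. SREBP2, the product of Srebf2, acts mainly on sterol genes, and SREBP1, the product of Srebf1, mainly on fatty acid genes. The brain makes nearly all of its own cholesterol, since plasma lipoproteins do not cross the blood-brain barrier. SREBPs act on promoters together with the general factors NF-Y, which binds CCAAT boxes, and SP1, which binds GC boxes.

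The promoters of 6 members are shown. They belong to 4 sterol enzymes, Acss2, and Fasn for contrast. Of these, Hmgcs1 was not called below and its groups overlapped, so its motif is not tied to an expression result. Cyp51 and Sc5d, whose groups did not overlap, are not shown. Each of the 6 windows below holds a CCAAT box, and all but that of Fasn a GC box. Of the 6, only Hmgcs1 holds the SRE-type motif given next. Each line gives the 150 bases before the annotated start of the gene on its own strand, from RefSeq on GRCm38.p6, with the SRE-type motif TCACNCCAC, the CCAAT box and the GC box GGGCGG in capitals wherever either strand holds them.
Hmgcs1: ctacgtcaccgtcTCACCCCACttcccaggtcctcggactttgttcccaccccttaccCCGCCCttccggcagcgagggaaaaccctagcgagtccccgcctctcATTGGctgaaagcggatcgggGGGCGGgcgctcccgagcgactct
Lss: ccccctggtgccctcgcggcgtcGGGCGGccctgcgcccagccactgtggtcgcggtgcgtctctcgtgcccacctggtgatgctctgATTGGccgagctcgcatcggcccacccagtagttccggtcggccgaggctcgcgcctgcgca
Nsdhl: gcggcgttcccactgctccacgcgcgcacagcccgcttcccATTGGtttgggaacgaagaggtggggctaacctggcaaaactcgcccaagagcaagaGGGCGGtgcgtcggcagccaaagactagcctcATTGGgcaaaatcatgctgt
Tm7sf2: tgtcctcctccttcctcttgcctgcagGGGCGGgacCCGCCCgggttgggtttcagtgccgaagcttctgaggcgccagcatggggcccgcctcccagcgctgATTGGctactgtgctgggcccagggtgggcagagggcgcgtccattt
Acss2: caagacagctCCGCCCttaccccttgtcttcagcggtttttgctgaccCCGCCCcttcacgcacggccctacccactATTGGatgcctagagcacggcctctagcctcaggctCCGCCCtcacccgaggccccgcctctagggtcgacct
Fasn: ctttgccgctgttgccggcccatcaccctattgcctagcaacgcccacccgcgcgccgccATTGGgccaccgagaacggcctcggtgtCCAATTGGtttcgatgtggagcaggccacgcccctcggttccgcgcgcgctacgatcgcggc
These windows lie at chr13:119690201-119690350 (Hmgcs1, plus strand), chr10:76531455-76531604 (Lss, plus strand), chrX:72918371-72918520 (Nsdhl, plus strand), chr19:6067851-6068000 (Tm7sf2, minus strand), chr2:155517893-155518042 (Acss2, plus strand) and chr11:120824548-120824697 (Fasn, minus strand), each ending at the base before the annotated start.

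Over the 250 bases before the start, a CCAAT box was present in 14 of the 15 sterol enzyme genes that have a listed promoter, against 37.5% of all 27025 genes with one and 39.5% of protein-coding genes. The GC box was likewise present in 14 of 15, against 35.4% of all genes and 45.8% of protein-coding genes. Among 7 fatty acid enzyme genes with a listed promoter, 3 held a CCAAT box and 3 a GC box. Among the 5 regulators, 4 held a CCAAT box and 5 a GC box. A gene was counted when any of its listed promoters held the letters on either strand. The SRE-type motif TCACNCCAC was found in 1 of 15 sterol enzyme genes, Hmgcs1, and in 0 of 7 fatty acid enzyme genes, against 1.22% of all genes. The E-box CACGTG, which SREBPs can also bind, was found in 3 of 15 sterol enzyme genes (Hsd17b7, Sc5d and Dhcr7) and in 1 of 7 fatty acid enzyme genes (Elovl5), against 6.86% of all genes. In Hmgcs1 the SRE-type letters begin 137 bases before the start. These matches are a description of the letters and were not set against binding data.

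The 6 arrays resembled each other closely, with correlations between 0.990 and 0.998 over the named probe sets and medians between 7.86 and 7.93 on the log2 scale. Their main axis of variation (principal component 1) took up 47.6% of the variance, and the number 3 array had the highest score of its group in both groups. Scores were -12.90, -22.57 and 10.45 on control arrays 1, 2 and 3 and 12.65, -10.96 and 23.34 on the knockdown arrays. Each knockdown array thus scored above the control array of its number. A fit with this component as a covariate can therefore remove part of the difference between groups. Of 15 measured markers of the sympathoadrenal neuroblastoma lineage, Stmn2, a neuronal microtubule regulator, lay between 13.42 and 13.55 and Chga, a secretory granule protein, between 13.06 and 13.25, and these were the highest. The neurofilament genes Nefl and Nefm lay between 5.88 and 6.29, below every array median. The mean level of this list was 10.38 to 10.45 on the control arrays and 10.28 to 10.37 on the knockdown arrays, 11 of its 15 genes had a lower mean in knockdown, its median difference was -0.10, and 0 of the 6 tested were called by limma, with or without the replicate block described below. Its part in the lipid gene values was not tested. Markers of hepatocytes, adipocytes, fibroblasts, glia and macrophages had mean levels between 6.39 and 7.33, below the array medians, in each of 5 lists and on each array. Dali itself was not analysed here, as no probe set was annotated to it, so the depth of the knockdown was not checked. Probe sets were tested where their interquartile range over the 6 arrays was above the median (11705 probe sets). They were called at an adjusted p under 0.1 and a change of at least 1.3-fold by limma, which called 43 as higher and 90 as lower in Dali knockdown.

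No single member passed this test. Of the 26 members that were kept by the filter on variance, 0 were called in either direction by limma, against 1.14% of all probe sets tested, or 0.769% in the lower direction. At an unadjusted p under 0.05, 5 of the 26 were lower and 0 higher, against 7.31% of probe sets in the lower direction, and these were Nsdhl, Tm7sf2, Sc5d, Lss and Acss2. When the replicate number was added to the model as a block, so that each knockdown array was set against the control array of the same number, 2 of 26 were called, both lower, against 4.89% of all probe sets in that direction, and these were Lss and Acss2. Under the same block without the threshold on fold, an alternative added after the data had been seen, 11 of 26 members were lower at an adjusted p under 0.1 and 0 higher, against 12.8% lower and 9.34% higher of all probe sets. Of these 11, 9 were among the 13 sterol enzymes tested and 2 among the 8 fatty acid enzymes tested.

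**Figure D1:**
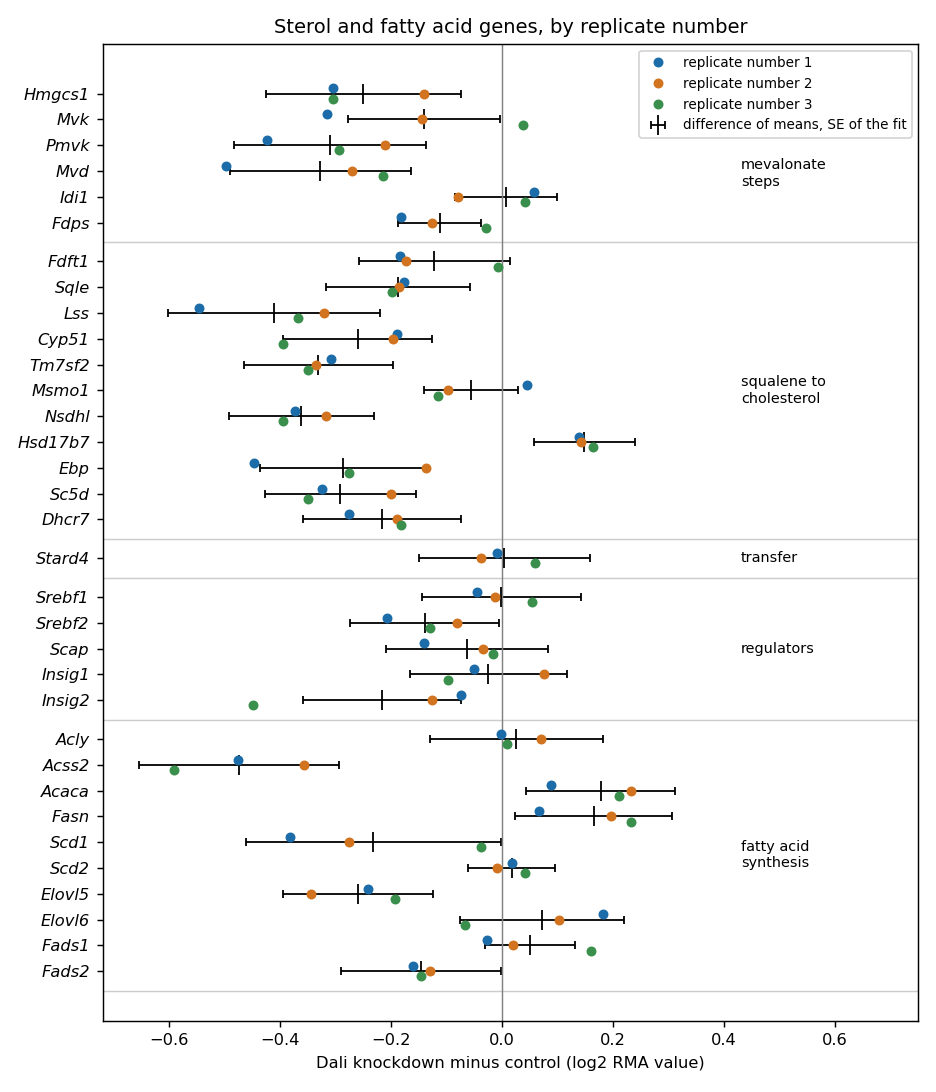
Difference between Dali knockdown and control on the log2 scale (x axis) for the 33 genes measured, ordered by their role; coloured points are the difference within each replicate number and the black mark is the difference of group means with its SE. Most sterol enzymes lie to the left of 0 for every replicate number, whereas fatty acid enzymes lie on both sides.

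Most sterol enzymes had a somewhat lower mean in Dali knockdown, whereas the fatty acid enzymes lay on both sides of 0. Of 17 sterol enzymes, 15 had a lower mean in Dali knockdown, against 45.0% of all named genes, and the median difference was -0.25 on the log2 scale. Lbr, a sterol reductase of the same step as Tm7sf2, was not among the members and is left out of these counts. It differed by 0.28 and was higher in every pair. Of 10 fatty acid enzymes, 4 had a lower mean and the median difference was 0.02, close to the median of 0.02 over all 19938 named genes. The difference between the medians, sterol minus fatty acid, was -0.27. It had the same sign for each replicate number, at -0.29 for number 1, -0.19 for number 2 and -0.20 for number 3. This is a description of the members and not a test, because genes of a pathway are not replicates. With principal component 1 as a covariate, the sterol median shrank to -0.12 and the difference between the medians to -0.15. Since this component also scored higher in knockdown in every pair, that fit can remove part of the group difference itself.

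Within each replicate number, the sterol median was -0.31 for number 1, -0.19 for number 2 and -0.22 for number 3, and 14, 16 and 14 of the 17 enzymes were lower. Over all named genes, 40.7%, 51.0% and 55.3% were lower for the same numbers, with medians of 0.05, -0.00 and -0.02. In total 13 sterol enzymes were lower in the knockdown array of every pair, against 19.9% of all named genes, and 1, Hsd17b7, was higher in every pair. For 6 sterol enzymes (Fdps, Sqle, Cyp51, Tm7sf2, Nsdhl and Sc5d) all 3 knockdown values lay below all 3 control values, against 7.11% of all named genes. Among fatty acid enzymes this held for Elovl5 only. In 0 of the 33 members, by the probe set chosen, did all knockdown values lie above all control values, against 8.47% of named genes. The fatty acid median was -0.01, 0.01 and -0.01 for numbers 1, 2 and 3, and 4 of 10 enzymes were lower in every pair (Acss2, Elovl5, Fads2 and Scd1) while 2 were higher in every pair (Acaca and Fasn).

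The 6 measured enzymes of the mevalonate steps had a median difference of -0.20, with -0.31, -0.14 and -0.12 for replicate numbers 1, 2 and 3, so the pair with number 1 stood lowest. Hmgcs1, the synthase that forms HMG-CoA, read 12.88, 12.69 and 12.31 in control replicates 1, 2 and 3 and 12.57, 12.55 and 12.01 in the knockdown replicates. Each knockdown array was below the control array of its number, but the groups overlapped because both number 3 arrays were low. The difference was -0.25 ± 0.18 (SE, n = 3 against 3; limma adjusted p = 0.592, or 0.0819 with the replicate block). It shrank to -0.07 without knockdown replicate 3, to -0.12 without control replicate 1 and to -0.03 with principal component 1 as a covariate. Mvd, which decarboxylates mevalonate diphosphate to isopentenyl diphosphate, differed by -0.33 ± 0.16 (adjusted p = 0.419 by limma, or 0.0497 with the block) and by -0.50, -0.27 and -0.22 within numbers 1, 2 and 3. Pmvk, the kinase of the step before it, differed by -0.31 ± 0.17 (adjusted p = 0.485 by limma, or 0.0487 with the block). Both genes had an adjusted p under 0.1 with the block, while their size stayed under 1.3-fold, and with principal component 1 as a covariate they were at -0.14 and -0.07. Mvk, the kinase that acts on mevalonate itself, differed by -0.14 and was slightly higher in knockdown for number 3. The 2 enzymes that follow were removed by the filter on variance: Idi1, the isomerase of isopentenyl diphosphate, differed by 0.01 and Fdps, which joins these units to farnesyl diphosphate, by -0.11.

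Steps from squalene to cholesterol had the lower median of the 2 sterol groups, -0.26 over 11 enzymes, with -0.28, -0.19 and -0.28 for replicate numbers 1, 2 and 3. A lower mean was found for 10 of the 11. Nsdhl, a dehydrogenase that removes a carboxyl group at sterol carbon C4, had the smallest unadjusted p of all members in the fit to all named probe sets. Its control values were 12.10, 11.97 and 12.04 and its knockdown values 11.73, 11.66 and 11.65. The knockdown arrays were all below the lowest control array, and the groups did not overlap. The difference was -0.36 ± 0.13 (SE), with a 95% interval of -0.64 to -0.09 and a limma adjusted p of 0.243, or 0.0269 with the block. Since the size stayed below the 1.3-fold threshold (0.379 on the log2 scale), it was not called under the block.

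Tm7sf2, a sterol reductase that acts after lanosterol demethylation, gave 10.62, 10.74 and 10.57 in control and 10.32, 10.40 and 10.22 in knockdown. These groups did not overlap either, and the difference hardly varied between replicate numbers, at -0.31, -0.33 and -0.35. Its fitted difference was -0.33 ± 0.13 (limma adjusted p = 0.301, or 0.0326 with the block). Lss, the cyclase that closes the sterol ring system to form lanosterol, stood at 13.20, 13.06 and 12.49 in control and at 12.66, 12.74 and 12.12 in knockdown. Every knockdown array lay below its control partner, yet the control array with number 3 was lower than the knockdown arrays with numbers 1 and 2. The difference of -0.41 ± 0.19, or 1.33-fold lower, had a limma adjusted p of 0.383 without the block and of 0.0227 with it. The size of this difference depended on single arrays: Lss was at -0.62 and called without the block when control replicate 3 was left out, at -0.27 without control replicate 1 and at -0.22 without knockdown replicate 3. With principal component 1 as a covariate it was -0.12 (limma adjusted p = 0.706).

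Sqle, the epoxidase that commits squalene to sterols, read 12.61, 12.67 and 12.65 in control and 12.44, 12.48 and 12.45 in knockdown. The groups were apart and each was tight, with SDs of 0.03 and 0.02. The difference was -0.19 ± 0.13 (limma adjusted p = 0.585, or 0.145 with the block). It was small against the spread that limma assigned from the tested probe sets, which are the more variable ones. In the fit to all named probe sets, the limma p of Sqle was 0.0316 unadjusted and 0.406 adjusted. Cyp51, the lanosterol demethylase, read 12.14, 12.21 and 12.16 in control and 11.96, 12.02 and 11.77 in knockdown, also without overlap. It differed by -0.26 ± 0.13 (limma adjusted p = 0.441, or 0.0793 with the block), and by most, -0.40, for number 3. Sc5d, a desaturase near the end of the pathway, read 11.65, 11.62 and 11.86 in control and 11.33, 11.42 and 11.51 in knockdown. Here too the groups were apart, with the number 3 array the highest of each group. The difference was -0.29 ± 0.14 (limma adjusted p = 0.384, or 0.0532 with the block).

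Ebp, the isomerase that moves the ring double bond, read 10.33, 10.21 and 10.57 in control and 9.89, 10.07 and 10.29 in knockdown. Each pair was lower in knockdown, but the number 3 knockdown array exceeded the number 2 control array. The difference was -0.29 ± 0.15 (limma adjusted p = 0.452, or 0.073 with the block). Dhcr7, the reductase that completes cholesterol, differed by -0.22 and was lower in every pair. Fdft1, the squalene synthase, differed by -0.12, with -0.01 for number 3, and a second probe set of it, at -0.12, was higher by 0.02 for that number. The other two enzymes, which act with Nsdhl on the C4 methyl groups of the sterol, were removed by the filter on variance. Msmo1, the oxidase, differed by -0.06, and Hsd17b7, the ketoreductase that completes the demethylation, by 0.15. Hsd17b7 was the highest of the sterol enzymes, with 0.14, 0.14 and 0.16 for numbers 1, 2 and 3. Stard4, which carries sterol between membranes, differed by 0.00 ± 0.15.

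**Figure D2:**
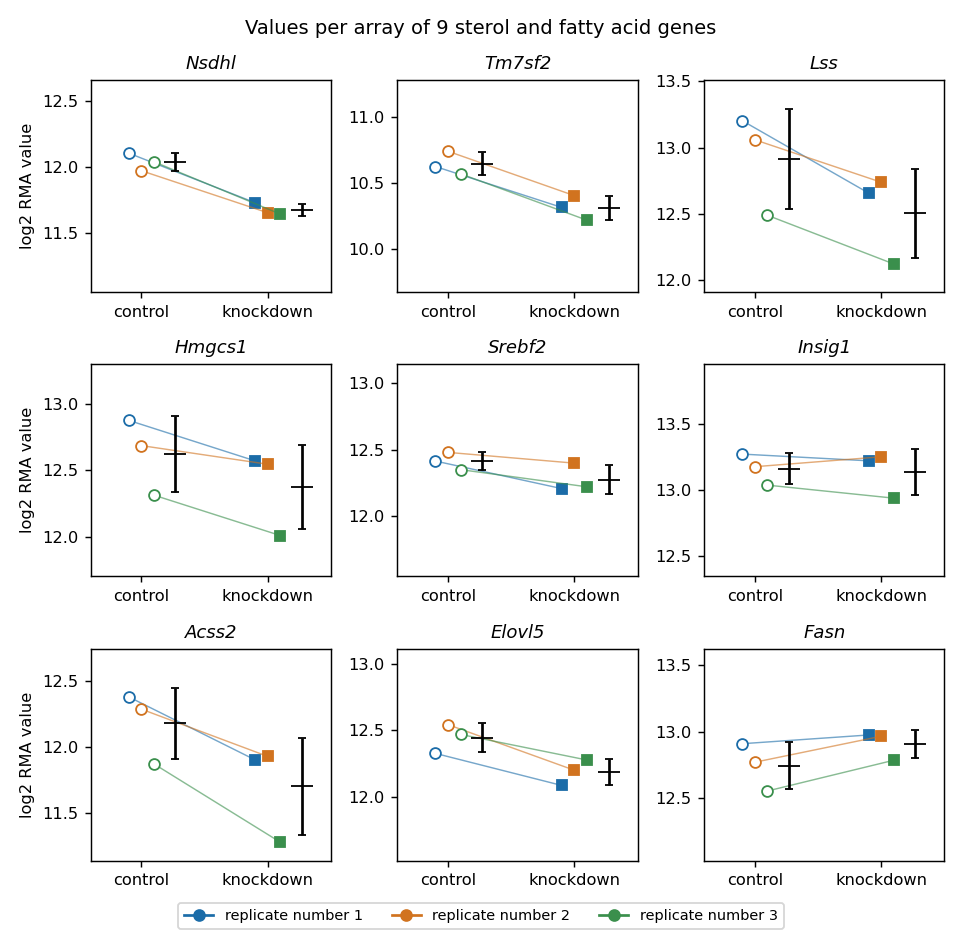
Log2 RMA values (y axis, the same span of 1.6 in each panel) on the 3 control arrays (open circles) and 3 Dali knockdown arrays (filled squares) for 9 genes, coloured by replicate number and joined within it; black marks are group means with SDs. Nsdhl, Tm7sf2 and Elovl5 groups do not overlap, Lss, Hmgcs1 and Acss2 are lower in every pair while the number 3 arrays sit lowest in both groups, and Fasn is higher in every pair.

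The regulators were less displaced than the sterol enzymes, with differences from -0.22 to -0.00, a median of -0.06, and 0 of 4 tested called by limma (0 also with the block, and 0 at an unadjusted p under 0.05). Srebf2, which encodes SREBP2, read 12.41, 12.48 and 12.35 in control and 12.21, 12.40 and 12.22 in knockdown. It was lower in every pair, and the groups overlapped at the number 2 knockdown array. The difference was -0.14 ± 0.13 (limma adjusted p = 0.749). Srebf1, which encodes SREBP1, read 11.27, 11.55 and 11.28 in control and 11.23, 11.54 and 11.33 in knockdown, so that the number 2 arrays were the highest of both groups. Its difference was -0.00 ± 0.14, with a 95% interval from -0.30 to 0.30. The transcript level does not report how much SREBP is cleaved.

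Scap, the escort protein, read 11.41, 11.57 and 11.68 in control and 11.27, 11.54 and 11.66 in knockdown, a difference of -0.06 ± 0.15, and the groups overlapped over most of their range. Insig1, itself a target of SREBPs and a common readout of their activity, read 13.27, 13.18 and 13.04 in control and 13.22, 13.25 and 12.94 in knockdown. It was lower in 2 pairs and higher for number 2, and its difference of -0.02 ± 0.14 had a 95% interval from -0.32 to 0.27. With the block this interval was -0.21 to 0.16. Whether SREBP activity differed between the groups was not tested. Insig2, the second anchor, read 11.24, 11.33 and 11.13 in control and 11.17, 11.21 and 10.68 in knockdown. Most of its difference of -0.22 came from the number 3 pair, at -0.45, and the filter on variance removed it from the test.

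Fatty acid enzymes diverged from each other. Acss2, which makes acetyl-CoA from acetate, had the lowest difference of all 33 members. It read 12.38, 12.28 and 11.87 in control and 11.90, 11.93 and 11.28 in knockdown. Every knockdown array was lower than its partner, and the groups overlapped because control number 3 was below knockdown numbers 1 and 2, as for Lss. The difference was -0.47 ± 0.18, or 1.39-fold lower, with a limma adjusted p of 0.273, or 0.0152 with the block. It was -0.26 without knockdown replicate 3 and -0.22 with principal component 1 as a covariate. Elovl5, an elongase of polyunsaturated fatty acids, read 12.33, 12.54 and 12.47 in control and 12.08, 12.20 and 12.28 in knockdown. Its groups were apart, and it differed by -0.26 ± 0.14 (limma adjusted p = 0.449, or 0.0716 with the block). Fads2, the desaturase that opens the polyunsaturated route, differed by -0.15 and also was lower in every pair.

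Acaca, the acetyl-CoA carboxylase that forms malonyl-CoA, read 10.91, 10.76 and 10.66 in control and 10.99, 10.99 and 10.87 in knockdown. It was higher in every pair, but the number 3 knockdown array fell below the number 1 control array. The difference was 0.18 ± 0.14 (limma adjusted p = 0.636, or 0.179 with the block), and a second probe set of Acaca, not the one chosen by the rule, differed by 0.20 ± 0.13, with 9.62 to 9.74 in control and 9.85 to 9.92 in knockdown, which did not overlap. Fasn, the fatty acid synthase, read 12.91, 12.77 and 12.55 in control and 12.97, 12.97 and 12.78 in knockdown. It too was higher in every pair with overlapping groups, and it differed by 0.16 ± 0.14 (limma adjusted p = 0.697, or 0.215 with the block), ranging from 0.07 to 0.25 when each array was left out. Acly, which cleaves citrate to supply cytosolic acetyl-CoA to both pathways, differed by 0.03 ± 0.16.

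Of the desaturases that make monounsaturated fatty acids, Scd1 read 7.65, 8.08 and 7.02 in control and 7.27, 7.81 and 6.98 in knockdown. The range over its control arrays, 1.06, exceeded its difference of -0.23 ± 0.23 (limma adjusted p = 0.762). Scd2, the form typical of brain, read 13.97, 14.11 and 14.04 in control and 13.99, 14.10 and 14.08 in knockdown, and its difference was 0.02 ± 0.08, with a 95% interval from -0.16 to 0.20. The filter on variance removed Scd2 and Fads1, a desaturase that acts after Fads2 and differed by 0.05. Elovl6, which elongates palmitate, differed by 0.07, with 0.18 for number 1 and -0.07 for number 3.

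The range over the 3 control arrays exceeded the difference between the groups for 23 of the 33 members. This was a smaller share than among all named genes (15991 of 19938), so it is not particular to the members. A range over single arrays and a difference of group means are also unlike measures. The number 3 array was set against the mean of numbers 1 and 2 within control and, separately, within knockdown. It deviated in the same direction in both groups for 27 of 33 members (81.8%, against 67.8% of named genes), lower in both for 20 and higher in both for 7. Of all 19938 named genes, 5620 were lower in both and 7903 higher in both, so the members leaned the other way. Lss was lower on the number 3 array by 0.64 in control and 0.58 in knockdown, Hmgcs1 by 0.47 and 0.55, Acss2 by 0.46 and 0.63, and Scd1 by 0.85 and 0.56. Ebp was higher on it by 0.30 and 0.31 and Fads2 by 0.28 and 0.28. For Nsdhl the deviations were 0.00 and -0.05. The genes that were called with the block, Lss and Acss2, were among those with the widest deviation shared by both number 3 arrays. They were also the only members to differ by 1.3-fold or more, so no other member could be called. Nsdhl, with little shared deviation, had a limma adjusted p of 0.0269 with the block. The part of the shared deviation in these calls was not tested. What the number 3 samples had in common is not stated in the labels.

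**Figure D3:**
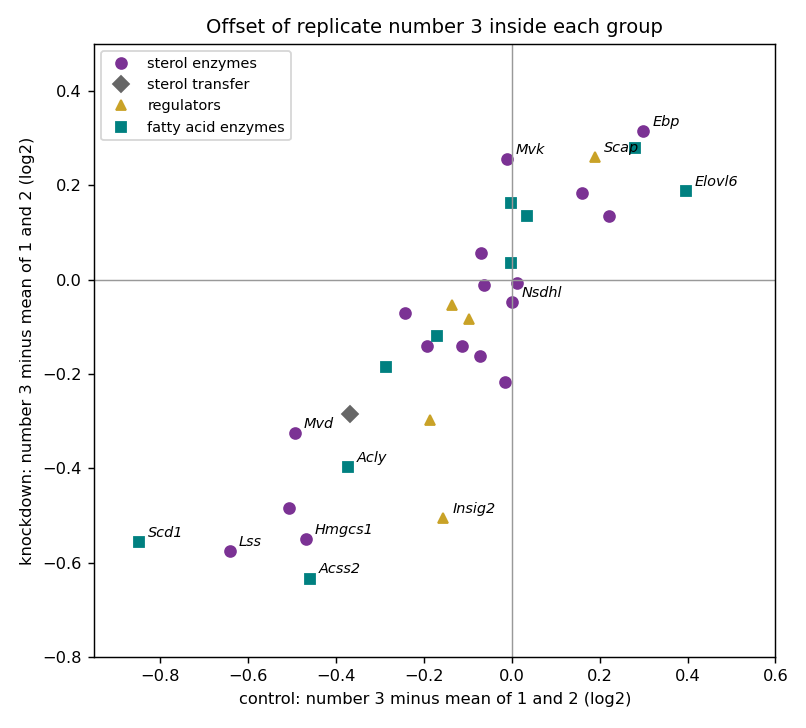
Log2 value on the number 3 array minus the mean of numbers 1 and 2, within control (x axis) and within Dali knockdown (y axis), for the 33 genes, with shape and colour by role. Points gather in the lower left and upper right, where 27 of the 33 lie, with Lss, Acss2, Hmgcs1, Pmvk and Scd1 at the far lower left.

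Genes that surround the members in lipid metabolism were taken from 6 further lists. Of 81 genes listed, 68 were measured, 39 were tested and 0 were called by limma, while 4 were lower and 0 higher at an unadjusted p under 0.05. With the replicate block 6 of the 39 were called, all lower, again against 4.89% of all probe sets. The list medians lay between -0.09 and 0.03, closer to the median of all genes than that of the sterol enzymes. Lower means were nevertheless frequent in some of them. Of 22 other lipid synthesis genes, 15 had a lower mean, 12 were lower in every pair and 1 was higher in every pair. Of 16 fatty acid oxidation genes, 12 had a lower mean, 4 were lower in every pair and 2 higher. Over all named genes, 45.0% had a lower mean, 19.9% were lower in every pair and 21.5% higher.

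Sterol handling genes had a median of -0.06 over 10 genes, with 5 lower and 5 higher. Ggps1, which makes geranylgeranyl diphosphate from the same isoprenoid units, differed by -0.48 ± 0.14 (limma adjusted p = 0.139, or 0.0152 with the block), and Lipa, the lysosomal lipase that frees cholesterol from its esters, by -0.43 ± 0.36 (adjusted p = 0.69 by limma, or 0.0163 with the block). Lipa carried a wide shared deviation, since its number 3 arrays read 8.33 in control and 7.93 in knockdown and all other arrays between 9.07 and 10.01. Stard3, a late endosomal sterol transporter, differed by -0.27. In the other direction, and named after the values were seen, Lbr, a sterol reductase of the same step as Tm7sf2, differed by 0.28 ± 0.14 (adjusted p = 0.438 by limma, or 0.068 with the block), and Lrp8, a receptor of reelin and of apolipoprotein E, by 0.24. Both were higher in every pair. The isoprenoid branch had a median of -0.03 over 8 genes, with Rabggta, which prenylates Rab proteins, at -0.16 and Dhdds, which starts dolichol synthesis, at -0.15. In the list of SREBP processing, whose median was 0.03 over 6 genes, Erlin2, part of the complex that degrades sterol-regulated proteins of the endoplasmic reticulum, differed by -0.39 ± 0.15 (adjusted p = 0.287 by limma, or 0.0319 with the block). Faf2, a factor of the same degradation system, differed by -0.15.

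Mylip, a target of the sterol-sensing LXR receptors that encodes a ubiquitin ligase, differed by -0.65 ± 0.17 (adjusted p = 0.105 by limma, or 0.00906 with the block), the lowest value of the 6 lists. It read 10.20, 10.21 and 9.87 in control and 9.58, 9.69 and 9.06 in knockdown, and the groups did not overlap. The LXR list as a whole had a median of -0.02 over 6 genes, and Nr1h3, an LXR receptor itself, differed by 0.10. Other lipid synthesis genes had a median of -0.06 over 22 genes, with Lpin1, a phosphatidate phosphatase, at -0.41 ± 0.22 (adjusted p = 0.453 by limma, or 0.021 with the block, and -0.03 with principal component 1 as a covariate) and Dgat1, which completes triglycerides, at -0.25. Fatty acid oxidation had a median of -0.09 over 16 genes. There Hadhb, a subunit of the mitochondrial trifunctional protein, differed by -0.49 ± 0.14 (adjusted p = 0.122 by limma, or 0.0175 with the block) and Decr1, a reductase needed for unsaturated chains, by 0.28.

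**Figure D4:**
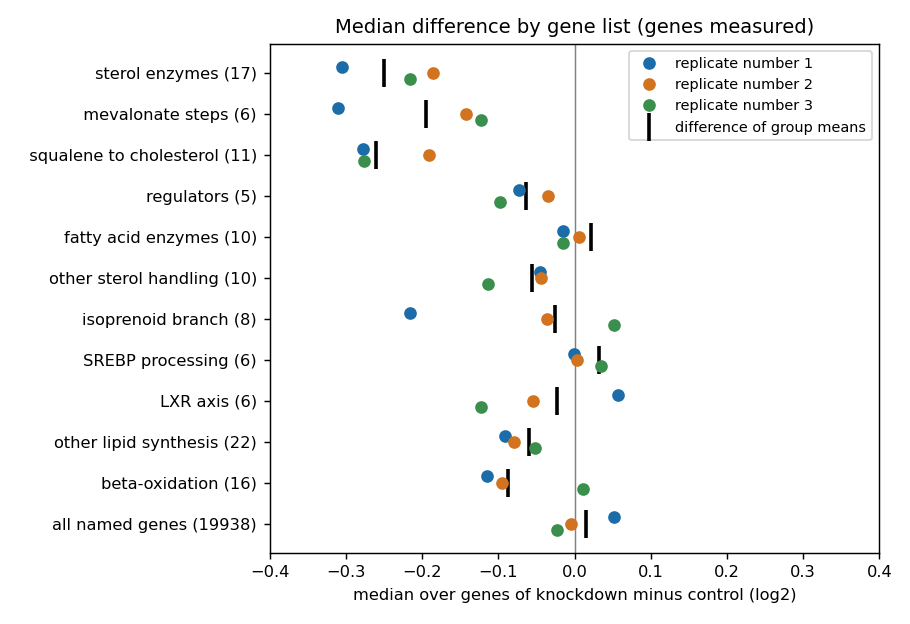
Median over genes of the log2 difference between Dali knockdown and control (x axis) for the sterol and fatty acid groups, 6 further lipid lists and all named genes, with the number of genes measured in brackets; black bars are medians over genes of the difference of group means, and points are the same medians within a replicate number. The sterol enzymes lie at -0.25 and the fatty acid enzymes at 0.02.

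The fibroblast list had a median of 0.29 between the number 1 arrays, against -0.09 and -0.06 for numbers 2 and 3. Its genes were split there, with 2 of 7 lower (Dcn at -0.27 and Pdgfra at -0.03) and Postn at 0.01. The hepatocyte, adipocyte, glia and macrophage lists had medians between 0.09 and 0.15 for number 1, and all named genes 0.05. This was the pair in which the sterol median was lowest. The mean level of the 7 fibroblast genes lay between 7.18 and 7.30 on the control arrays and between 7.13 and 7.32 on the knockdown arrays, with Col1a1 highest, at 8.46 to 8.81. The part of these markers in the sterol values was not tested.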

How the data were processed

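RNA of 6 N2A samples (3 control, 3 Dali knockdown) was measured on Affymetrix Mouse Gene ST arrays. The deposited table holds log2 values. Per the labels and the study's methods, the authors background corrected, quantile normalised and summarised each probe set at gene level by RMA. Tool versions, and which arrays were normalised together, are not given in the sources used here. Quantile normalisation gives arrays like distributions, so a shift shared by most genes cannot be seen. Genes were named from the platform annotation: 21789 of 35556 rows carried a single symbol and 1621 several, and 12146 were unlisted and left unnamed. Symbols were checked against a RefSeq table of GRCm38.p6. Promoters came from RefSeq on that assembly and no coordinates of probe sets were used.

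Following the study's methods, probe sets with a symbol and an interquartile range above their median (0.147) were tested with limma 3.58.1 in R 4.3.3 (lmFit and eBayes, two-sided, Benjamini-Hochberg adjustment over 11705 probe sets). They were called at an adjusted p under 0.1 and 1.3-fold. Members that the filter removed take differences and SEs from the fit to all 23410 named probe sets. SEs and intervals are those of the fit, with 4 residual degrees of freedom before moderation, and the number of arrays limits the precision. After group means were removed, the control and knockdown arrays of numbers 1, 2 and 3 correlated at 0.141, 0.646 and 0.655. The fit with that number as a block (2 residual degrees of freedom) is therefore given beside results. Control 1 correlated more with knockdown 2, at 0.202, so these values do not bear out the pairing of the number 1 arrays. The study calls the samples biological replicates without naming their cultures, so the p-values reflect only the variation among these 6 samples, which may be partly technical. The script was tested on simulated data with 3 against 3 independent arrays. There, 24 of 250 differences of 0.4 on the log2 scale were called, and 236 of 250 differences of 0.8. Differences of the size seen among the members would thus mostly be missed without the block.

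The members and all lists were chosen with earlier results of these data known. Values per array are given for 10 members fixed by name, for members called with or without the block, and for the 6 sterol and 3 fatty acid enzymes with the smallest p without the filter; other members are given by their difference, and other lists by called genes (here, those called with the block) and by the 2 with the smallest p without the filter.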

Additional observations from a re-analysis of the deposited data

How the results depend on the processing

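The replicate block raised the called members from 0 to 2 (1 sterol, 1 fatty acid enzyme) and the called genes of the other lipid lists from 0 to 6. With the block and no fold threshold the members came to 11, 9 sterol and 2 fatty acid enzymes. Over all probe sets, 133 were called, 896 with the block, 41 without the filter on variance, 0 with unnamed rows tested, 66 without dim probe sets, 499 with principal component 1 as a covariate, 427 with trend and robust settings, and 4 to 508 leaving out each array (lowest without knockdown replicate 1, highest without knockdown replicate 2). The other lipid lists had 1 call with probe sets averaged, 2 with the principal component and 3 with trend and robust settings. Leaving out each array gave 0 to 1 called members and sterol enzymes (Lss, without control replicate 3), 0 fatty acid enzymes, and 0 to 3 genes of the other lists (Ggps1 and Mylip without control replicate 3, and these with Hadhb without knockdown replicate 2). The sterol median ranged from -0.29 to -0.19 over these fits, the fatty acid median from -0.0209 to 0.0333, and their difference from -0.27 to -0.19. With the principal component the sterol median was -0.12 and the difference -0.15, and with median centring the fatty acid median was 0.0513.

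Over 14 alternatives, 23 of 33 members kept their sign, 16 of 17 sterol and 5 of 10 fatty acid enzymes among them. The 10 that turned lay between -0.06 and 0.07 in the fit reported, apart from Scd1 at -0.23. With the principal component Elovl6 was -0.0904, Idi1 -0.0252, Insig1 0.0852, Scd1 0.23 and Srebf1 0.12, and with median centring Insig1 was 0.0053 and Srebf1 0.0285. The cause was not tested. Leaving out each array gave ranges of -0.10 to 0.16 for Acly, -0.0001 to 0.20 for Elovl6, -0.0034 to 0.0877 for Fads1, -0.0594 to 0.0689 for Idi1, -0.0868 to 0.0742 for Insig1, -0.15 to 0.0475 for Scap, -0.51 to 0.0178 for Scd1, -0.0152 to 0.0499 for Scd2, -0.0887 to 0.0912 for Srebf1 and -0.12 to 0.11 for Stard4. A difference under 1.3-fold could not be called, whatever its precision.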
